A study of Sus scrofa with 4 samples.

Results

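The genes described here are 8 that heart muscle and its vessels use when the ventricle is loaded or injured: the natriuretic peptide precursors NPPA and NPPB, the stress-responsive muscle proteins ANKRD1, XIRP1 and ABRA, and the vasoactive genes ADM, EDN1 and AGTR1. They were taken by symbol from the annotation of the Affymetrix Porcine Genome Array, in which all 8 were found, among 6765 genes with a probe set of a single symbol. ANKRD1 has 2 probe sets and each of the other 7 genes has 1, which gives 9 probe sets of the 24123 on the array. Of the 24123, 13826 carry no symbol. In the gene lists below a gene therefore has a probe set only where a symbol matched. A gene that was not matched may still be on the array.

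Heart tissue was profiled on 4 arrays, 1 each for the infarct zone and the border zone after myoblast transplantation and for the infarct zone and the border zone of control hearts. According to the methods, the animals were 4-month-old female Chinese Bama minipigs with permanent ligation of the left circumflex artery, and the myoblast group received 50000000 human skeletal myoblasts in DMEM by 10 injections into the heart wall. The labels call the control tissue untreated, whereas the methods describe a control treatment of DMEM without cells, and state that the myoblast and control treatment groups both received cyclosporin A at 5 mg/kg. The Results of the paper describe the array comparison as one of the myoblast group with the control treatment group. If the control arrays are instead of untreated hearts, as labelled, cyclosporin and injection differ from the myoblast arrays as well. The injected cells are human and the probes are porcine. Neither source used here states the number of minipigs behind an array or the week of sampling, and whether the 2 zones of a treatment came from the same animal is not stated either. With 1 array per condition there is no spread between animals, so no test was made and every difference below is between single arrays.

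Signals are the MAS 5.0 values of the authors on the linear scale, on which the median probe set had 142 units (myoblast infarct), 139.5 (myoblast border), 137 (control infarct) and 139 (control border). All 18 cardiomyocyte markers measured lay above the array median on all 4 arrays. Their summed signal was 0.822 times that of controls in the infarct zone and 0.845 times in the border zone after myoblast transplantation, with 14 and 17 of the 18 lower. The arrays labelled infarct zone did not hold less cardiomyocyte signal than those labelled border zone, since the sum was 1.10 times (myoblast) and 1.13 times (control) as high. Fibroblast markers (12 measured) summed to 0.839 times control in the infarct zone and 1.27 times in the border zone, and smooth muscle and pericyte markers (9) to 1.06 and 1.05 times. The 28S rRNA signal was 12032 and 10299 on the myoblast infarct and border arrays, against 18769 and 17261 on the control arrays, and the 3'/5' signal ratio, a sign of RNA integrity, was 2.49 and 3.01 against 4.13 and 4.17 for EF1A. It was 1.38 and 1.73 against 1.52 and 1.55 for GAPDH, and 19.5 and 24.6 against 36.8 and 24.9 for actin, so that GAPDH ran the other way in the border zone and actin was nearly alike there. In bulk tissue, fewer cells of a type and less RNA per cell cannot be told apart.

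Atrial natriuretic peptide, the product of NPPA, and B-type natriuretic peptide, the product of NPPB, are hormones that act through guanylyl cyclase receptors to raise cyclic GMP, relax vessels and promote sodium excretion. In the adult heart NPPA is expressed mainly in the atria, and both genes are switched on in ventricular muscle under wall stress. ANKRD1 (cardiac ankyrin repeat protein) binds titin and shuttles to the nucleus, XIRP1 (Xin) binds actin at the intercalated disc, and ABRA (also called STARS) binds actin and promotes transcription by serum response factor. Adrenomedullin (ADM) dilates vessels, endothelin (EDN1) constricts them, and AGTR1 is the main receptor for angiotensin II.

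With myoblasts, NPPA was higher and ABRA and the dimmer ANKRD1 probe set were lower by at least 2-fold in both zones, while NPPB and the brighter ANKRD1 probe set stayed within 1.5-fold of control, as did EDN1 and AGTR1. In the infarct zone 4 of the 9 probe sets were at least 2-fold from control (NPPA and ADM higher, ABRA and dimmer ANKRD1 lower), against 20.1% of all probe sets (10.5% higher and 9.58% lower). In the border zone there were also 4 (NPPA higher, ABRA, XIRP1 and dimmer ANKRD1 lower), against 20.4% of all (9.95% higher and 10.4% lower). Those shares come mostly from dim probe sets. Of the 1452 probe sets averaging 2048 to 8192 units over the arrays, where NPPA, ABRA, XIRP1 and dimmer ANKRD1 lie, 3.99% (infarct zone) and 4.27% (border zone) were that far from control. In the range of ADM, 128 to 512 units, the share was 5.82% in the infarct zone. The median log2 ratio of the 9 probe sets was -0.05 in the infarct zone and -0.20 in the border zone, beside 0.01 and 0.00 over all probe sets. The members thus did not move as a group in 1 direction.

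**Figure D1:**
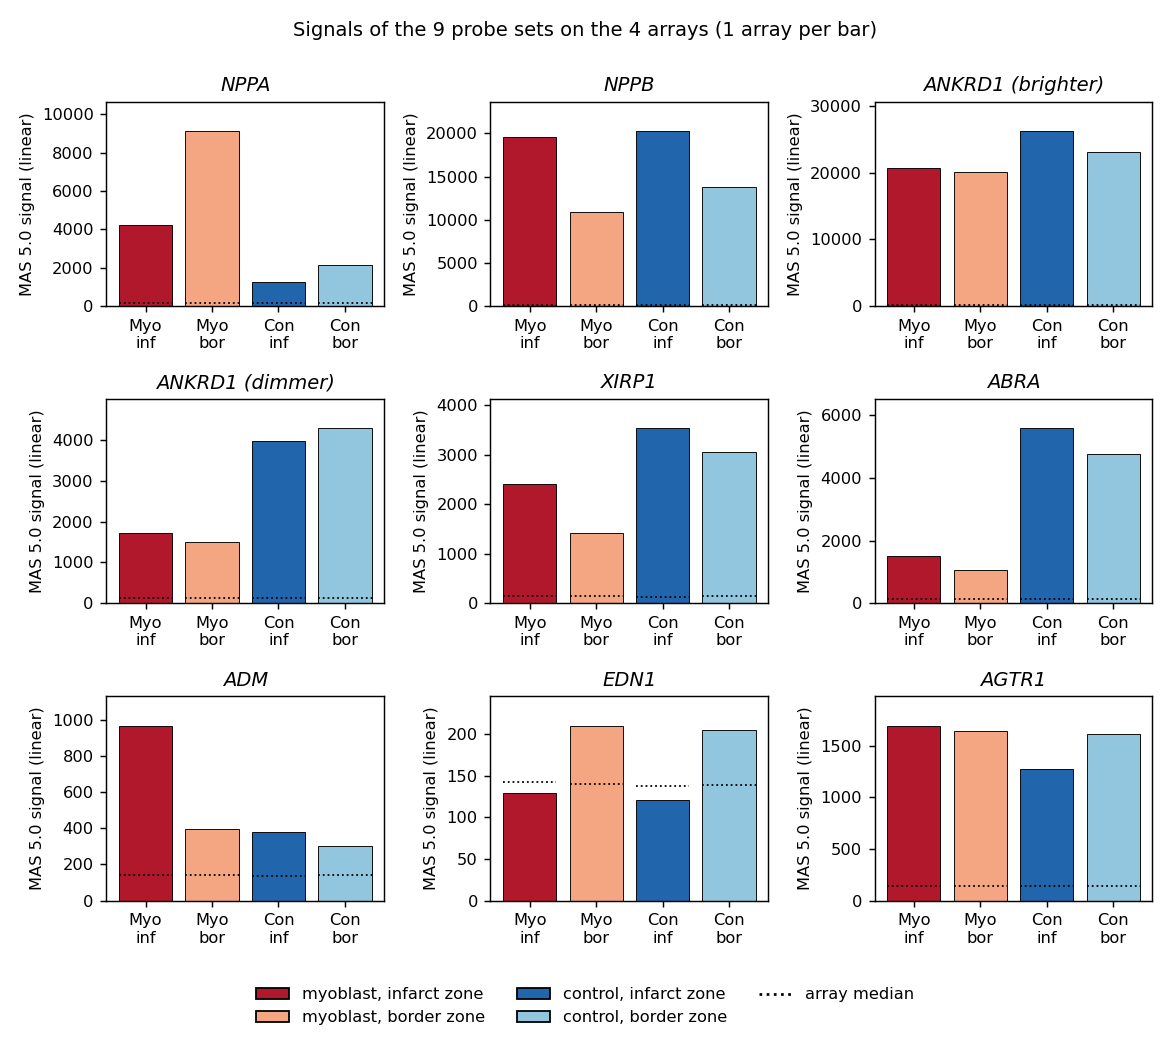
Bars give the linear MAS 5.0 signal (y axis, starting at 0, a scale of its own for each probe set) on the 4 arrays (x axis: myoblast infarct, myoblast border, control infarct, control border), 1 array per bar and so without error bars, with the array median dotted. NPPA is highest on both myoblast arrays, ABRA and the dimmer ANKRD1 probe set are lowest there, and NPPB is split by zone and not by treatment.

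NPPA was the member with the widest range, 7.32-fold between its highest and lowest array. Its signal was 4218 in the infarct zone and 9119 in the border zone with myoblasts, against 1246 and 2153 in the same zones of control hearts. Both myoblast arrays thus lay above both control arrays. The ratio of myoblast over control was 3.38 in the infarct zone and 4.24 in the border zone (log2 1.76 and 2.08), the 9th and the 3rd highest of the 1452 probe sets of like signal. The zones also differed: NPPA in the infarct zone was 0.463 times its border zone signal with myoblasts and 0.579 times in controls.

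NPPB lies directly beside NPPA in the RefSeq annotation of the pig genome (Sscrofa11.1), with no protein-coding gene between them. Its signal was 19546 in the infarct zone and 10922 in the border zone with myoblasts, against 20268 and 13836 in controls. Here the zones separate and the treatments do not: both infarct zone arrays lay above both border zone arrays. The ratio of myoblast over control was 0.964 (infarct zone) and 0.789 (border zone). In the infarct zone NPPB was 1.79 times its border zone signal with myoblasts and 1.46 times in controls, each the 3rd highest of the 397 probe sets with a mean signal over 8192. NPPA and NPPB therefore ran in opposite directions between the zones in both treatments, and the ratio of myoblast over control of NPPA exceeded that of NPPB 3.51 times in the infarct zone and 5.37 times in the border zone.

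Since NPPA is foremost an atrial gene, the 6 measured genes of an atrial list were set beside it. MYL4, the atrial essential light chain, gave 331 units in the infarct zone and 1901 in the border zone after transplantation, against 719 and 1120.1 in control hearts. SLN (sarcolipin, an inhibitor of the calcium pump that is typical of atrial muscle) gave 161 and 1833 units after transplantation, against 997 and 931 in control hearts. Both were thus highest on the myoblast border array and lowest on the myoblast infarct array, where NPPA still exceeded both controls. The nuclear receptors NR2F1 and NR2F2, which mark atrial identity, had ratios of 1.85 and 1.56 in the infarct zone and 1.50 and 1.28 in the border zone. PAM, which amidates peptides, had 0.809 and 0.929, and KCNJ3 lay under the array median on all 4 arrays. The summed atrial signal was 15476 and 18897 units after transplantation against 19396 and 17893 in control hearts, which is 0.798 times control in the infarct zone and 1.06 times in the border zone. Most of that sum was PAM, at 13478 and 13637 units against 16667 and 14677. The median log2 ratio of the list, in which each gene counts alike, was -0.66 in the infarct zone, with 2 of 6 genes higher, and 0.47 in the border zone, with 5 of 6 higher. Whether atrial tissue contributed to the NPPA signal of the border zone array was not tested.

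Of 18 listed genes of the natriuretic peptide system and of cyclic GMP, 5 were matched to a probe set by symbol. By its brightest probe set none of the 5 was at least 2-fold from control in either zone. Dim further probe sets of PDE5A (2.24) and GUCY1B3 (0.274) were that far from control in the infarct zone. NPR2, the receptor for C-type natriuretic peptide, had 223 and 225 units in the infarct and border zone with myoblasts, against 263 and 154 in controls. GUCY1B3, a subunit of the soluble guanylyl cyclase that makes cyclic GMP, had ratios of 1.12 and 1.16, and PDE9A, which degrades it, 0.846 and 0.821. The C-type peptide gene NPPC and the phosphodiesterase PDE5A lay under the array median throughout. The receptors NPR1 and NPR3 and the processing enzymes CORIN and FURIN were not matched to a symbol and are not analysed here.

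**Figure D2:**
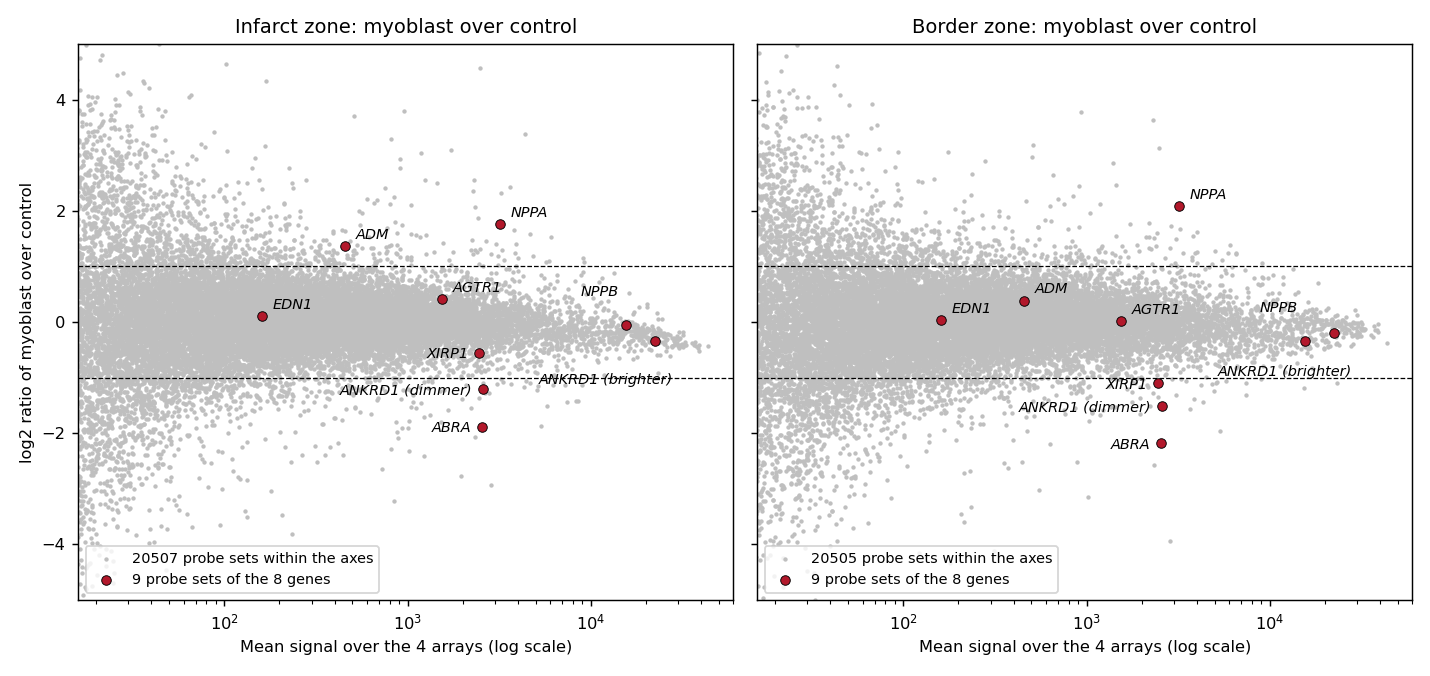
Log2 ratio of myoblast over control (y axis) against the mean signal over the 4 arrays (x axis, log scale) in the infarct zone (left) and the border zone (right), with the probe sets inside the axes in grey, the 9 probe sets of the 8 genes in red and 2-fold dashed. NPPA lies above and ABRA below nearly all probe sets of like signal in both zones, while NPPB, brighter ANKRD1, EDN1 and AGTR1 lie within the band.

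ABRA was the member with the largest fall. Its signal was 1517 in the infarct zone and 1050.2 in the border zone with myoblasts, against 5577 and 4758 in controls. Both myoblast arrays lay far under both control arrays, by more than the zones of either treatment differed. The log2 ratios were -1.88 and -2.18, each the 3rd lowest of the 1452 probe sets of like signal. The infarct zone was 1.44 times the border zone with myoblasts and 1.17 times in controls.

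XIRP1 showed the same order of arrays with smaller differences between the treatments. Its signal was 2406 in the infarct zone and 1424 in the border zone with myoblasts, against 3529 and 3056 in controls. The log2 ratio was -0.55 in the infarct zone, where it did not reach 2-fold, and -1.10 in the border zone. The infarct zone was 1.69 times the border zone with myoblasts, the 8th highest of the 1452 probe sets of like signal, and 1.15 times in controls.

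The 2 ANKRD1 probe sets gave different sizes. The brighter one, tied by the annotation to the RefSeq transcript, had 20767 and 20109.7 units in the infarct and border zone with myoblasts, against 26237 and 23040.3 in controls. The dimmer one, tied to an expressed sequence tag, had 1730 and 1511 with myoblasts, against 3970 and 4282 in controls. Both myoblast arrays lay under both control arrays on either probe set, but the log2 ratios were -0.34 and -0.20 on the brighter and -1.20 and -1.50 on the dimmer. The brighter probe set ranked between 67th and 88th of the 24123 on each array. Probe sets over 8192 units had a median ratio of 0.862 (infarct zone) and 0.923 (border zone), close to the 0.792 and 0.873 of brighter ANKRD1, which was the 107th and 143rd lowest of those 397. A fall of at least 2-fold in ANKRD1 therefore rests on 1 of its 2 probe sets, and the arrays do not show which of them follows the transcript.

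The falls of ABRA, XIRP1 and dimmer ANKRD1 were larger than the median log2 ratio of the cardiomyocyte markers, -0.30 in the infarct zone and -0.26 in the border zone, with none of 18 at least 2-fold from control by its brightest probe set. Most of these markers average over 8192 units, where 1.26% (infarct zone) and 1.01% (border zone) of probe sets were that far from control. In the range of ABRA, XIRP1 and dimmer ANKRD1 the shares were 3.99% and 4.27%, so the signal ranges are unlike. Titin-linked and Z-disc proteins had medians of -0.20 and -0.25. Of 28 listed, 13 had a probe set and 11 of these were lower in both zones, but by the brightest probe set of each gene only TRIM55 (a sarcomere-associated ubiquitin ligase) by at least 2-fold, at 2212 and 1841 units after transplantation, against 4810.3 and 4581 in control hearts. The chaperone CRYAB resembled ANKRD1 in that its probe sets differed: the dimmer one had 411 and 394 units after transplantation against 1736 and 2261 in control hearts (ratios of 0.237 and 0.174), and the brighter one had ratios of 0.756 and 0.867. XIRP2, the closest relative of XIRP1, had ratios of 0.981 and 1.05. FHL2, a partner of several Z-disc proteins, had 0.621 and 0.678, and CASQ2, the calcium buffer of the sarcoplasmic reticulum, 0.638 and 0.548.

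**Figure D3:**
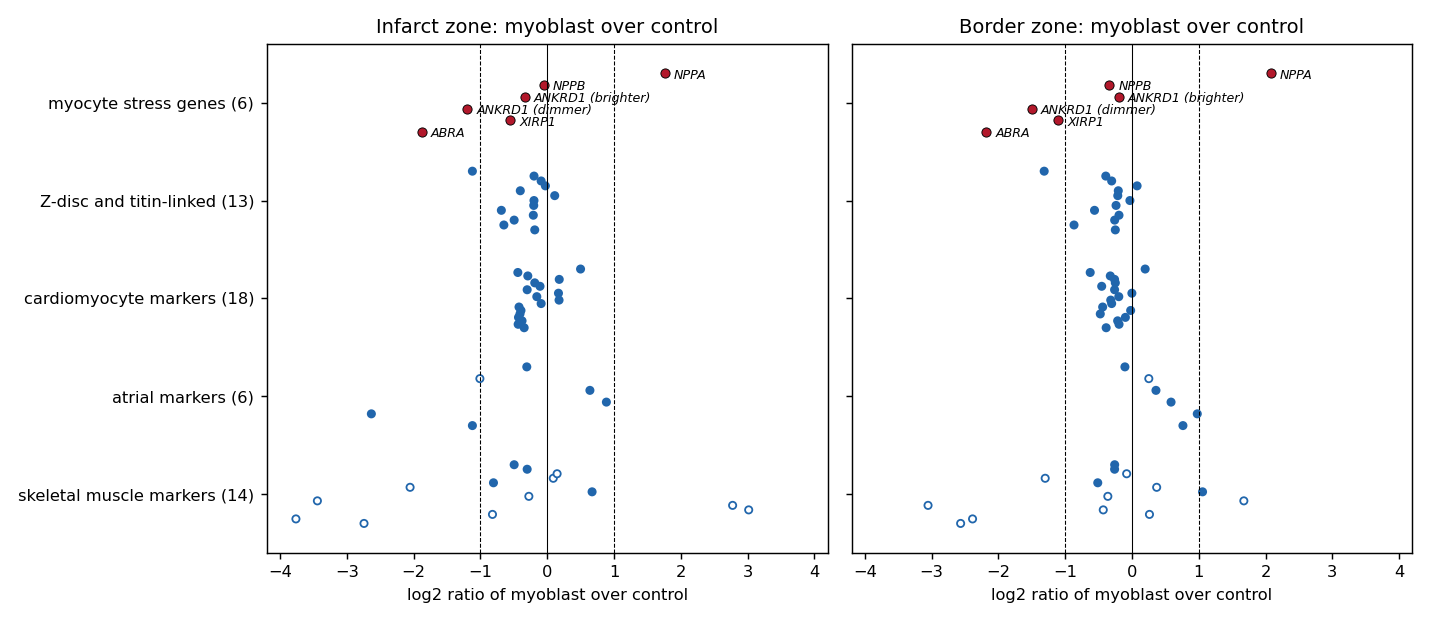
The x axis gives log2 ratios, myoblast over control (2-fold dashed), in the infarct zone (left) and the border zone (right) for the 6 probe sets of the myocyte stress genes (red) and for each measured gene of 4 lists (blue; filled where the signal exceeded the array median on all 4 arrays). The 18 cardiomyocyte markers all lie inside 2-fold, with ABRA and the dimmer ANKRD1 probe set to their left and NPPA to their right.

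No measured gene of the pathway that ABRA feeds into differed as much as ABRA by its brightest probe set. Of 22 listed genes of SRF, MRTF and YAP signalling, 10 had a probe set. By the brightest one none was at least 2-fold from control in either zone, with medians of -0.09 (infarct zone) and -0.42 (border zone). Further probe sets of TEAD1 (10.5), ROCK1 (0.255) and VCL (2.97) were that far from control in the border zone. In the infarct zone those of TEAD1 and ROCK2 were. All of these further probe sets lay under the array median on every array. The YAP target CYR61 had ratios of 1.22 and 1.45, ABLIM3, an actin-binding partner of ABRA, 0.687 and 0.523, and the SRF coactivator MYOCD 0.690 and 0.627. ROCK2, a kinase of actin tension, had 257 units in the infarct zone against 78.8 in the border zone with myoblasts (3.26 times). In controls it had 211 against 148 (1.43 times). The 78.8 lay under the array median of 139.5, and the dimmer ROCK2 probe set had zone ratios of 1.79 with myoblasts and 1.33 in controls.

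Other genes of the fetal and load-responsive programme did not follow NPPA as a group. Of 16 measured, by the brightest probe set of each, 1 was at least 2-fold higher and 2 were lower in the infarct zone. The shares of all probe sets there were 10.5% and 9.58%. In the border zone 2 were higher and 1 was lower, against 9.95% and 10.4% of all. Of the genes counted in the border zone, UCP2 (higher) and UCP3 (lower) lay under the array median on every array. The slow myosin heavy chain MYH7 had ratios of 0.761 and 0.986 and RCAN1, a target of calcineurin, 0.627 and 0.658. The matrix protein TNC had 575 and 1866 units after transplantation against 250.3 and 240.0 in control hearts, so that it shared with NPPA the highest signal on the myoblast border array. POSTN, another matrix protein of wound healing, had 6583 and 16607.5 against 8626 and 9569. The atrial genes MYL4 and SLN, which belong to this list too, have been given above.

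ABRA, ANKRD1 and XIRP1 are also expressed in skeletal muscle. Of 14 skeletal muscle markers measured, 10 lay under the array median on all 4 arrays at signals of 2.18 to 124, among them the myogenic factors MYOD1, MYF5 and MYF6. Of the 4 above it, 3 were lower with myoblasts in both zones: the light chain MYL1 had ratios of 0.572 (infarct zone) and 0.701 (border zone), the creatine kinase CKM 0.812 and 0.835, and desmin (DES) 0.709 and 0.835. The fourth, the slow troponin T gene TNNT1, had 13056 and 11481 units after transplantation against 8196 and 5519.9 in control hearts. The list summed to 0.881 and 0.976 times control. Most of its 48859 and 43515 units after transplantation came from CKM (22308 and 19625), DES (10976 and 8920) and TNNT1. CKM is also in the cardiomyocyte list, and DES in the Z-disc and smooth muscle lists. The sum therefore does not separate skeletal from heart muscle.

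Adrenomedullin was higher with myoblasts mainly in the infarct zone. Its signal was 968 in the infarct zone and 393 in the border zone with myoblasts, against 377 and 301 in controls. A single array, that of the myoblast infarct zone, thus stood apart, and the other 3 lay within 301 to 393. The log2 ratios were 1.36 and 0.39, the first being the 71st highest of 6029 probe sets of 128 to 512 units. With myoblasts the infarct zone was 2.46 times the border zone, the 32nd highest of the 6029, and in controls 1.25 times.

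Of the adrenomedullin system, 6 of 10 listed genes had a probe set. CALCRL, the receptor that binds adrenomedullin together with a RAMP protein, was dim, at 23.3 and 10.9 units after transplantation against 43.4 and 54.7 in control hearts. RAMP2, its partner in the adrenomedullin receptor, had 857 and 942 against 970 and 1124, RAMP1 had ratios of 0.884 and 0.697, and RAMP3 was under 24 units on all 4 arrays. The receptor subunits that were above the array median were thus under control in both zones. Of the 6 genes, 1 was at least 2-fold higher in the infarct zone (the peptide gene CALCB, at 8.55 to 73.2 units) and none lower. In the border zone none was higher and 2 were lower, the dim CALCRL and CALCB. Over all probe sets 10.5% were that much higher in the infarct zone and 10.4% lower in the border zone.

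Endothelin was alike in the 2 treatments and differed by zone. EDN1 had 129 units in the infarct zone and 210.1 in the border zone with myoblasts, against 120.5 and 205 in controls. The 2 infarct zone signals lay under the median of their arrays and both border zone signals above it. The infarct zone was 0.616 times the border zone with myoblasts and 0.588 times in controls, and the ratios of myoblast over control were 1.07 and 1.02. Of the 7 listed genes of its system 3 had a probe set: the receptor EDNRA had ratios of 0.948 and 1.20, and the receptor EDNRB 1.41 and 2.17. The EDNRB ratio of the border zone rests on a control signal of 69.7, under the array median, and a dimmer EDNRB probe set had ratios of 1.65 and 0.0728, the opposite direction there. ECE1, which cleaves the precursor, had 8.48 and 12.7 units against 44.1 and 67, under the median on every array. A dimmer ECE1 probe set had ratios of 0.191 and 1.01.

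AGTR1 was the steadiest member next to brighter ANKRD1, with a range of 1.33-fold over the 4 arrays. It had 1698 units in the infarct zone and 1642 in the border zone with myoblasts, against 1279 and 1617 in controls, so that only the control infarct array lay lower than the other 3. The log2 ratios were 0.41 and 0.02. Its ligand precursor moved more: angiotensinogen (AGT) had 5836 and 2074 units after transplantation against 1142 and 1980.1 in control hearts. AGT was thus 5.11 times control in the infarct zone and 1.05 times in the border zone, and with myoblasts the infarct zone was 2.81 times the border zone while in controls it was 0.577 times. Of 5 genes of the renin-angiotensin list with a probe set, of 13 listed, 2 were at least 2-fold higher in the infarct zone, against 10.5% of all probe sets. They were AGT and the receptor-associated protein AGTRAP (2.34 and 1.48). The infarct zone ratio of AGTRAP rests on a control signal of 121, under the array median of 137. None was that much higher in the border zone, against 9.95% of all. ACE, which makes angiotensin II, had 147 and 120.2 units against 90.3 and 90.2. AGTR2 was not matched to a symbol.

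The vasoactive genes are expressed in vessels and in macrophages as well as in muscle, and the markers of those cells are therefore given with them. The 13 endothelial markers summed to 10979 and 9084 units after transplantation against 8582 and 8882 in control hearts (1.28 and 1.02 times), with 3 of them (KDR, FLT1 and TIE1) under the array median throughout. The 14 macrophage and monocyte markers summed to 20105 and 14944 units against 16821 and 14490.3 (1.20 and 1.03 times), with CD14 and ITGAM under the median. With myoblasts the macrophage sum was 1.35 times as high in the infarct zone as in the border zone, and the endothelial sum 1.21 times. In controls they were 1.16 and 0.966 times, beside 1.25 times for ADM. The median log2 ratio of myoblast over control of the endothelial list was 0.08 (infarct zone) and 0.09 (border zone), with 8 of 13 higher in each. That of the macrophage list was 0.50 and 0.28, with 12 and 8 of 14 higher. Both sums thus moved in the same direction as ADM between the treatments and, with myoblasts, between the zones. Between the control zones the endothelial sum ran opposite to ADM. The endothelial median of myoblast over control was alike in both zones. The part of these cells in the ADM signal was not tested.

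Between infarct and border zone of control hearts no member was at least 2-fold apart, against 17.2% of all probe sets and 0.138% of those of 2048 to 8192 units. After myoblast transplantation 2 of 9 were (ADM higher and NPPA lower in the infarct zone), against 18% of all (9.77% higher and 8.18% lower) and 2.13% in that signal range, which holds NPPA. In the range of ADM, 128 to 512 units, the share was 3.3%. The largest zone differences of the members in controls were those of NPPA (log2 -0.79), EDN1 (-0.77) and NPPB (0.55). The same 3 genes differed in the same direction with myoblasts (-1.11, -0.70 and 0.84). The zone and treatment comparisons share arrays, so these values are not independent of those given above.

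**Figure D4:**
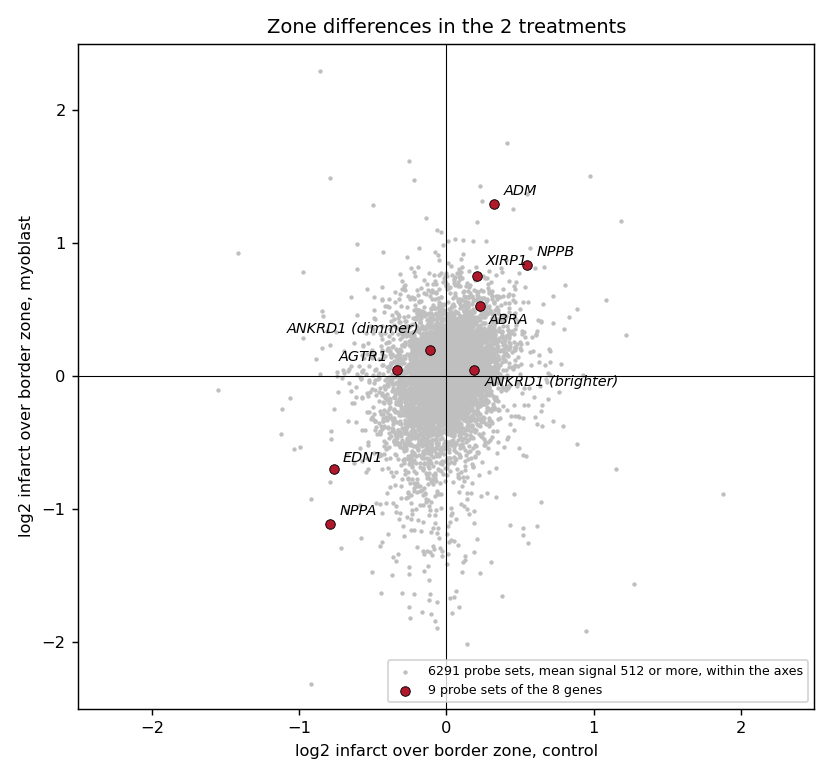
Log2 ratio of infarct over border zone with myoblasts (y axis) against the same ratio in control hearts (x axis), with probe sets of a mean signal of 512 or more in grey and the 9 probe sets of the 8 genes in red (ADM and EDN1 have lower mean signals than the grey points). NPPA and EDN1 are lower, and NPPB and ADM higher, in the infarct zone in both treatments.

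All 9 probe sets had myoblast over control ratios on the same side of 1 in both zones, while 39.5% of all probe sets had them on opposite sides. With quantile normalization NPPB was an exception, at a log2 ratio of 0.17 in the infarct zone and -0.25 in the border zone, as was EDN1 at 0.05 and -0.01. Between infarct and border zone, 2 of 9 (dimmer ANKRD1 and AGTR1) lay on opposite sides of 1 in the treatments, against 46.1% of all probe sets. For EDN1 and AGTR1 the border zone ratios, 1.02 and 1.02, were too close to 1 to give a direction.

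The genes whose 4 signals ran most like those of a member were sought among the 5527 probe sets of other named genes above the array median on all arrays, by the root mean square difference of log2 signals centred on their own mean. With 4 arrays this describes a profile and no more. Closest to ABRA was MYOM1, the M-band protein myomesin (distance 0.08), with 3190 and 2403 units with myoblasts against 11695 and 9288 in controls. It has a single probe set, and its fall was of the size seen for ABRA. Next came a CD163 probe set (0.09) and SLC3A1 (0.22), but another and brighter CD163 probe set had ratios of 1.39 and 0.792. Closest to XIRP1 were probe sets of BAG1 (0.04), PDK4 (0.05) and LPL (0.06). PDK4, the kinase that limits pyruvate oxidation, had 2785 and 1783 units against 4021 and 3639 on that probe set, and ratios of 0.801 and 0.889 on a brighter one. Lipoprotein lipase (LPL) had 4111 and 2475 against 5638 and 5444.

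The profile of NPPA was closest to those of a THBS1 probe set (0.15), FBP1 (0.25) and a dimmer ACTG2 probe set (0.37). The brightest THBS1 probe set had ratios of 2.14 in the infarct zone and 2.36 in the border zone. The dimmer ACTG2 probe set had ratios of 4.42 and 6.27, but the brighter one only 1.21 and 1.65. FBP1, a gluconeogenic enzyme with a single probe set, had 1544 and 2432 units against 514 and 628. Closest to ADM were C1QC (0.17), a PQLC2 probe set (0.19) and SELENBP1 (0.19). A dimmer PQLC2 probe set ran the other way, with ratios of 0.574 and 0.412, and the dimmest had 0.793 and 2.27. C1QC, a complement subunit made by macrophages, had 2743 and 1496 units with myoblasts against 1428 and 1079 in controls, which gives an infarct zone ratio of 1.92.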

How the data were processed

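The deposited values are log2 signals, 1 column for each of the 4 Affymetrix Porcine Genome Arrays, which the authors made with MAS 5.0 (background subtracted, each array scaled) in Gene Spring Software 11.0. No replicate array, depth or detection call was used, so the number of arrays limits precision. Probe sets were named from the platform annotation, and 9989 of 10099 single symbols were matched by gene ID to RefSeq (Sscrofa11.1) with no symbol changed. Here log2 signals were subtracted within zone and within treatment and counted at 2-fold, the threshold of the methods, with Python 3.11.15 and pandas 2.3.3. Background shares were taken over all probe sets and within ranges of mean signal. The counting was tested on simulated data. In a gene list the probe set of highest mean signal stood for a gene. Lists covered the 4 peptide and hormone systems, Z-disc proteins, SRF signalling, fetal genes and markers of 7 tissues or cell types. Named from them were receptors and processing enzymes of the members, and genes above the array median that differed at least 2-fold in both zones or between zones, at most 4 per list. Other list members were chosen after their values were seen. The members and lists were chosen with earlier results of these data known. Alternatives were quantile normalization, centring, floors on low signals, 4-fold, a filter on dim probe sets and other uses of several probe sets.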

Additional observations from a re-analysis of the deposited data

Results flagged for a closer look

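The results for 2 probe sets were flagged because a zone ratio lay on opposite sides of 1 in the treatments. Neither difference was tested, since each rests on 4 single arrays. On the dimmer ANKRD1 probe set, infarct over border zone was above 1 with myoblasts (1.14) and under 1 in controls (0.927), a difference of log2 ratios of 0.30. For AGTR1 the ratios were 1.03 with myoblasts, too close to 1 to give a direction, and 0.791 in controls, a difference of 0.39. Over all probe sets 46.1% had zone ratios on opposite sides of 1 in the 2 treatments, so this does not set the 2 apart.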

How the results depend on the processing

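Counts of members at least 2-fold apart kept to the same value under quantile normalization, centring and both floors, and with dim probe sets left out. The floors and that filter could not change the 8 of 9 probe sets that lay above the median on all arrays. With the brighter ANKRD1 probe set alone, 3 genes were that far from control in each zone. At 4-fold, 2 of 9 probe sets were left in the border zone (NPPA and ABRA), 0 in the infarct zone and 0 between the zones after myoblasts. With quantile normalization 2 probe sets had ratios on opposite sides of 1 in the 2 zones, against 0 otherwise: NPPB (log2 0.17 in the infarct zone and -0.25 in the border zone) and EDN1 (0.05 and -0.01). The mean over both ANKRD1 probe sets had a log2 ratio of -0.85 in the border zone, against -0.20 for the brighter. The median of the endothelin list in the border zone, 0.26, was -1.19 when all probe sets of a gene were averaged. The other 159 values of member ratios and 279 of list medians moved by less than 1.5-fold. Many of the member values could not move, under the floors or, for the 7 genes with 1 probe set, when probe sets were averaged. No paired analysis was possible because each group has 1 array and no replicate number. Signals under 32 units carry little information, as 53.2% of such probe sets differed at least 2-fold between the control zones.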
